A study of Rattus norvegicus with 6 samples.

Results

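The guanylate-binding proteins (Gbp) and the immunity-related GTPases (Irg) are families of GTP-hydrolysing enzymes whose genes are switched on by interferons. Described here are 7 of their genes, Gbp1, Gbp2, Gbp4, Gbp5, Igtp, Irgm and Ifi47, out of 33565 rows in a gene count table from cultured rat heart cells. Of these, 6 were found by their gene name. The row of Gbp1 carries a clone name and was identified by the NCBI gene accession in its description. The genes were chosen by their counts in this same contrast, progesterone against control, so their own differences are given as a description, with no test.

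The cells were primary cardiomyocytes from the hearts of 7-day-old Sprague-Dawley rats, cultured in DMEM with fetal bovine serum at 10%. For 24 h they received either the vehicle (control, 3 libraries) or 100 nM progesterone, a steroid hormone (progesterone, 3 libraries). RNA was enriched for mRNA and sequenced, and the series title asks about progesterone, the coactivator YAP and cardiomyocyte proliferation. The labels call the replicates biological, but do not say whether they came from separate animals or cultures. P-values therefore measure the spread between these libraries, which may be technical.

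As background, interferon receptors signal through JAK kinases to STAT proteins, which, like the IRF factors, bind short DNA motifs before interferon-induced genes. Gbp proteins are large GTPases related to atlastins and dynamins. They assemble on membranes around intracellular microbes and can trigger inflammasomes, the complexes that activate inflammatory caspases. Irg proteins are smaller. Igtp and Irgm belong to the regulatory subgroup of the family, which guards the cell's own membranes, and Ifi47 to the effector subgroup, which is loaded onto vacuoles that hold microbes.

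The STAT and IRF proteins read 2 motifs that were searched for in the RefSeq promoter windows of these genes (build GRCr8, 300 bases around the annotated start of transcription). The first is the core of the interferon-stimulated response element (ISRE), searched as GAAA, any 2 bases and GAAA on both strands. The second is the gamma-activated site (GAS), searched as TTCNNNGAA, which reads the same on both strands. All 7 genes had a window, with 8 windows in all because Gbp1 has 2. An ISRE core was found in 6 of the 7 genes, where 3.92% of all 33469 promoter windows hold 1. A GAS was found in 3 of the 7, where 8.87% of all windows hold 1. The sequences below are shown to set the motifs of 3 Gbp and 3 Irg genes side by side: capitals mark the motif matches, and in Igtp and Irgm also the 2 bases between the motifs.
Gbp2, chr2:234005477-234005776, plus strand: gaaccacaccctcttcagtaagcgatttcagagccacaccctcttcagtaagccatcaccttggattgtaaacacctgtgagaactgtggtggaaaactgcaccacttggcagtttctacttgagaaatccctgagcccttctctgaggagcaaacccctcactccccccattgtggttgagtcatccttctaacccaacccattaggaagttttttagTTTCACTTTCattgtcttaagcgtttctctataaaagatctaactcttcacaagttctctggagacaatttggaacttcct
Gbp5, chr2:233910749-233911048, plus strand: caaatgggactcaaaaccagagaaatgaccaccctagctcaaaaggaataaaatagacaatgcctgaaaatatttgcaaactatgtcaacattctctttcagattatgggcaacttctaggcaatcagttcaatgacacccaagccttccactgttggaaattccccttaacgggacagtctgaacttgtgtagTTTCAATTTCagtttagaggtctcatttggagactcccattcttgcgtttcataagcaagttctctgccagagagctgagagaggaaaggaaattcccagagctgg
Gbp4, chr2:233978236-233978535, plus strand: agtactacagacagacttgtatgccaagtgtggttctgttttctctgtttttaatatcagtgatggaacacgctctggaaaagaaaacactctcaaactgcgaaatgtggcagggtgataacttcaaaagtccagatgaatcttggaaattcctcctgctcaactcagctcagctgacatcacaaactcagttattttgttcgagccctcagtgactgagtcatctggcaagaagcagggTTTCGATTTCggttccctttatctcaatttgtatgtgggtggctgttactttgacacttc
Igtp, chr10:42874797-42875096, plus strand: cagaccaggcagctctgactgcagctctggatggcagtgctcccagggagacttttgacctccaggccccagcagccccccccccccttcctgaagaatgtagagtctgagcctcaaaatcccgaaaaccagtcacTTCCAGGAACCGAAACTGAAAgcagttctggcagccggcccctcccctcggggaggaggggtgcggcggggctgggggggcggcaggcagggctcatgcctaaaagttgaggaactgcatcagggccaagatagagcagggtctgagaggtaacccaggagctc
Irgm, chr10:33742529-33742828, minus strand: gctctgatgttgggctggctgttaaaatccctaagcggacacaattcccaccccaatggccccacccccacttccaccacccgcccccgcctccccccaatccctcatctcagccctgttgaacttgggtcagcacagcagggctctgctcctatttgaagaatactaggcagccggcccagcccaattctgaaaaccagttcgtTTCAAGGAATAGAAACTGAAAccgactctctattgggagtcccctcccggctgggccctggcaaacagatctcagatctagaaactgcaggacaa
Ifi47, chr10:33798494-33798793, plus strand: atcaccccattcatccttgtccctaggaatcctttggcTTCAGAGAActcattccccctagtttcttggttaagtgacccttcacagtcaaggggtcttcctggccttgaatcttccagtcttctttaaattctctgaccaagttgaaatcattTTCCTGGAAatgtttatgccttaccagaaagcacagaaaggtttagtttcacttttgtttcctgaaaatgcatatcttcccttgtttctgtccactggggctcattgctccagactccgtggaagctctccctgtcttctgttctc

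In Gbp2, Gbp4 and Gbp5 the ISRE core lay on the opposite strand, close to the start: from -31 to -22 in Gbp2, from -10 to -1 in Gbp4 and from -56 to -47 in Gbp5, counted in bases from the start. No GAS match was in these 3 windows, but the families are not set apart by this: the window of Gbp7, a Gbp gene outside the 7, held an ISRE core from -41 to -32 and GAS matches from -93 to -85 and from -71 to -63. In Igtp and Irgm a GAS stood exactly 2 bases before an ISRE core, from -114 to -94 in Igtp and from -45 to -25 in Irgm. The joint pattern, TTCNNNGAA and then, after any 2 bases, the ISRE core, was put together after these windows had been seen. It occurred in 7 of all 33469 windows (0.0209%), which besides Igtp and Irgm were those of Irgm2, Ifgga2l2, Parp14, Stra8 and LOC134480693, a long noncoding RNA gene. The match of LOC134480693 is that of Igtp, since the windows of these neighbouring genes overlap. Ifi47 had GAS matches from -212 to -204 and from -96 to -88, and no ISRE core match. Only exact matches were searched for, and a run in its window, tttcactttt, differs from the core marked in Gbp2 in its last base alone. Of the windows of Gbp1, which are not printed, the first held neither motif. The second held ISRE cores, among them 3 copies of GAAA, each 2 bases from the next, from -142 to -127, a pattern found in 0.111% of all windows that contains the plain core. A match is a run of letters and not a measured binding site.

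In the control libraries these genes were among the more strongly read of the cultures, and with progesterone they were nearly unread. Together they took 0.262% ± 0.00464 of all counts in the controls and 0.00145% ± 0.000121 with progesterone (SD, n = 3 each). The summed counts were 186602 in the controls and 958 with progesterone, a control level 178 times the progesterone level after scaling (95% counting interval 167 to 190). Counting intervals here are exact binomial intervals on pooled counts and cover counting error only. In RNA from whole cultures, fewer cells of a type and less RNA per cell cannot be told apart. Progesterone libraries lay below all control libraries for 7 of 7 genes, and 34.8% of the 15075 genes tested did so. A fitted fall of at least 32-fold was found for 7 of 7, against 0.823% of all genes tested. Since these genes were picked for this contrast, nothing is read from those counts.

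Gbp2, which can be anchored to membranes by a lipid tail, had the highest level per length of the 7 in every control library. It was read at 844, 890 and 866 CPM (library-scaled counts, with TMM factors) in the controls, and with progesterone at 2.65, 2.78 and 2.86 CPM. The 3 libraries of each group lay close together, and 0.319% of the control level was left (counting interval 0.274% to 0.369%). Gbp5, described as a promoter of inflammasome assembly, was read at 486, 504 and 487 CPM and at 0.995, 1.32 and 1.08 CPM. With 0.230% left (0.180% to 0.288%), its interval overlaps that of Gbp2.

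Gbp1, which can coat the surface of bacteria, had 11834, 11128 and 12079 counts in the controls and 7, 0 and 9 with progesterone. Gbp4 had 1908, 1968 and 1665 counts in the controls and 0, 4 and 0 with progesterone. The progesterone library without a count of Gbp1, replicate 2, was thus the only progesterone library with counts of Gbp4. These are the lowest levels left among the 7, 0.0499% for Gbp1 (0.0285% to 0.0810%) and 0.0789% for Gbp4 (0.0215% to 0.202%), and their intervals overlap. In ratios, control over progesterone, these are 2004 (1234 to 3507) and 1268 (495 to 4654). For Gbp4 the ratio rests on few counts: without progesterone replicate 3 it was 820 (320 to 3012). Without progesterone replicate 2 no count was left, so that Gbp4 was then at least 1142-fold lower, taking 3 counts over the group as the floor. How reads that fit more than 1 Gbp gene were assigned is not known, so the split among these genes is uncertain.

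Among the Irg genes more was left. Ifi47, an effector GTPase, was read at 164, 153 and 155 CPM in control libraries, and at 0.758, 1.04 and 0.649 CPM in progesterone libraries, or 0.514% of the control level (0.385% to 0.673%). Irgm, a regulatory GTPase tied to autophagy and to the survival of immune cells, was read at 174, 172 and 167 CPM and at 1.42, 2.07 and 1.77 CPM, or 1.03% (0.846% to 1.23%). The counting intervals of Ifi47 and Irgm do not overlap, and neither reaches that of any Gbp gene described so far.

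Igtp, a regulatory GTPase of the endoplasmic reticulum, kept the largest share. It was read at 358, 352 and 353 CPM in control libraries, and at 7.15, 8.57 and 7.88 CPM in progesterone libraries, or 2.22% (2.03% to 2.42%). Its row needs care, since it spans 39460 bases in the table, while the rows of Irgm and Ifi47 span 7993 and 7631. In the RefSeq annotation Igtp stands between Igtpl1 and Irgm2, further Irg genes, so reads of those genes may have been counted in this row.

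**Figure D1:**
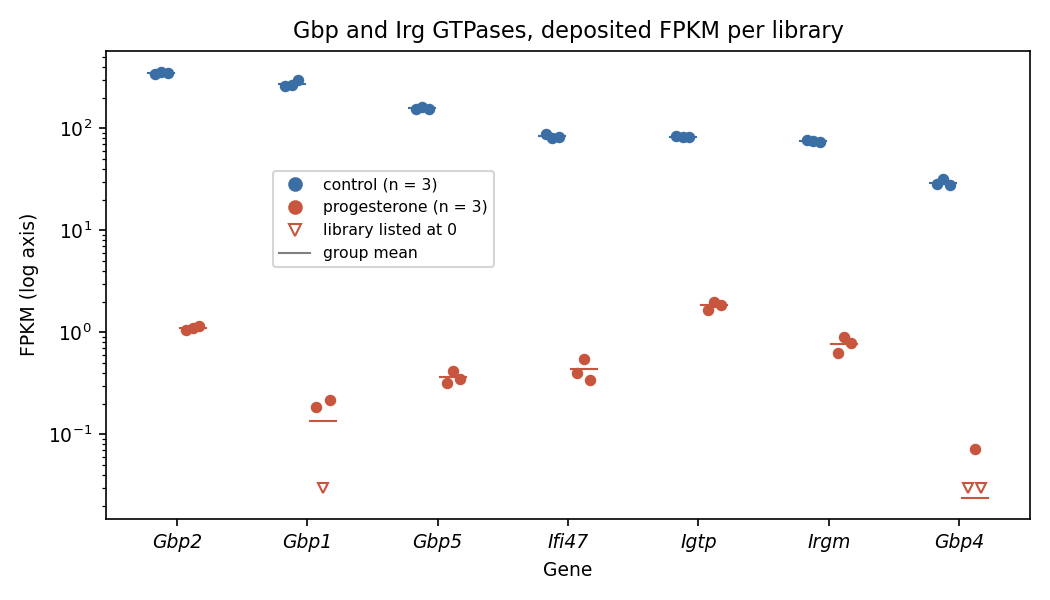
Deposited FPKM (fragments per kilobase of gene length, scaled to library size, log axis) of each of the 7 genes in each library, ordered by control level. Points are libraries, short lines are group means, and open triangles mark libraries listed at 0. Control points run from 27.6 for Gbp4 to 357 for Gbp2, and no progesterone point exceeds 2.00, that of Igtp.

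Compared per length, the order of the genes changed between the groups. On the FPKM scale the controls ran from Gbp2 (348 ± 8.52, SD, n = 3) through Gbp1 (275 ± 18.4), Gbp5 (158 ± 3.10), Ifi47 (83.6 ± 3.48), Igtp (82.8 ± 0.979) and Irgm (75.3 ± 1.89) down to Gbp4 (29.4 ± 2.30). Ifi47 and Igtp changed places between control libraries, and the other neighbours kept their order in all 3. By control FPKM, Gbp2 ranked 221st and Gbp1 283rd among the 15075 genes tested, and Gbp4 3038th. With progesterone Igtp came first in all 3 libraries, at 1.84 ± 0.163 FPKM, followed by Gbp2 (1.11 ± 0.0402) and Irgm (0.772 ± 0.142). Gbp5 and Ifi47 changed places between progesterone libraries, as did Gbp1 and Gbp4. The highest control level was 11.8 times the lowest.

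The balance between the 4 Gbp and the 3 Irg genes differed accordingly. The 4 Gbp genes made up 73.8% ± 0.845 of the CPM of the 7 genes in the controls and 28.8% ± 1.68 with progesterone (SD, n = 3). On pooled counts the control level was 458 times the progesterone level for the 4 Gbp genes (407 to 518) and 65.5 times for the 3 Irg genes (60.7 to 70.7). Igtp alone accounted for 13.6% ± 0.323 of the 7 genes' counts in the controls and 53.8% ± 0.0813 with progesterone. Gbp2 went from 33.2% ± 0.518 to 18.9% ± 1.36. Because Igtp carries most of what was left, the Irg share depends on the row that may hold reads of its neighbours. The balance is also that of these 7 genes and not of the whole families. Gbp6, a Gbp gene outside the 7, had 291 counts over the progesterone libraries, where the 4 Gbp genes had 275.

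**Figure D2:**
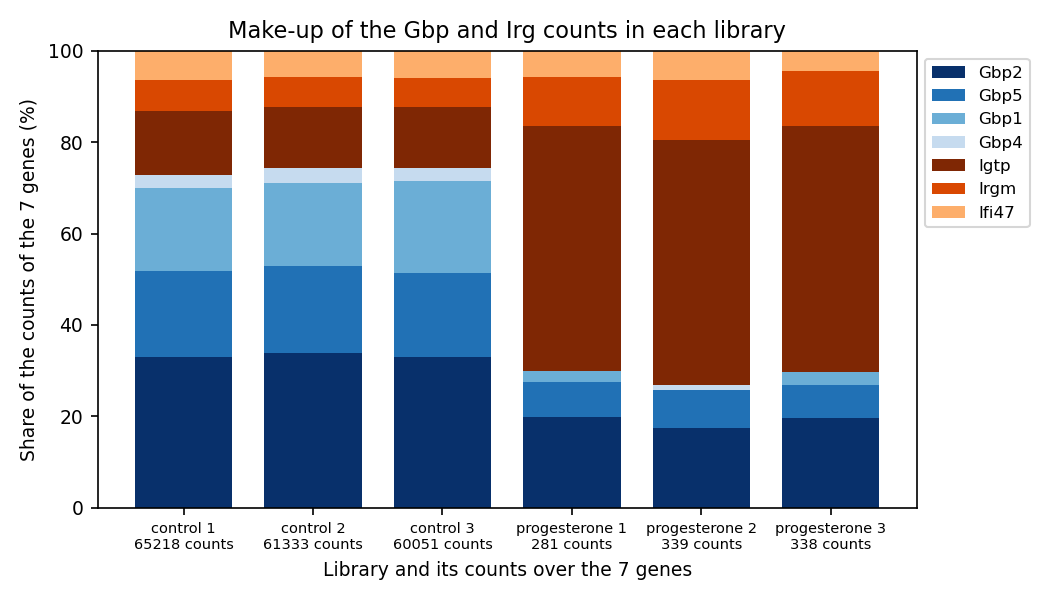
Share of each gene in the counts of the 7 genes (percent, bars sum to 100), by library, with the library's count over the 7 genes under each bar. Blue parts are Gbp genes and brown to orange parts Irg genes. The brown part, Igtp, widens from 13.6% in the controls to 53.8% with progesterone, while the counts drop from at least 60051 to at most 339 a library.

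All 7 genes passed the filter on low counts (filterByExpr of edgeR with a minimum count of 10). Gbp1 and Gbp4 passed through the controls alone, while the other 5 had at least 10 counts in every progesterone library. Fitted log2 fold changes, progesterone minus control, were -10.94 ± 0.24 for Gbp1 (SE), -10.18 ± 0.27 for Gbp4, -8.76 ± 0.07 for Gbp5 and -8.29 ± 0.06 for Gbp2. Those of the Irg genes were -7.59 ± 0.09 for Ifi47, -6.60 ± 0.08 for Irgm and -5.49 ± 0.06 for Igtp. The SE, here and below, is the size of the log2 fold change over the square root of the F of edgeR's quasi-likelihood test. For Gbp1 and Gbp4, with 16 and 4 progesterone counts in all, it understates the uncertainty. Without progesterone replicate 2 the value of Gbp4 was -13.81. The median of the 7 was -8.29, where that of all genes tested was 0.00.

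The genes lie in separate places of the genome. The 4 Gbp genes are on the plus strand of chromosome 2 within 231182 bases, in the table's rat build, which is not named in the sources used here: Gbp5 (248178389 to 248197160), Gbp4 (248249468 to 248263168), Gbp2 (248276709 to 248293784) and Gbp1 (248398917 to 248409570). Between Gbp5 and Gbp4 lies Gbp7, which was not among the 7 and is described next. Irgm (34213936 to 34221928, minus strand) and Ifi47 (34277993 to 34285623, plus strand) are 56064 bases apart on chromosome 10. Igtp (43613931 to 43653390, plus strand) is 9328307 bases from Ifi47.

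Named genes next to the Irg loci that encode other kinds of protein changed far less. Mrpl22, a mitochondrial ribosomal protein gene 1809 bases from Igtp, differed by 0.09 ± 0.07 on the log2 scale, which missed the threshold of edgeR's quasi-likelihood test (adjusted p = 0.33). Gemin5, which acts in snRNP assembly and lies 14698 bases from Igtp, rose slightly (0.21 ± 0.05, adjusted p = 0.0029). Trim7, a ubiquitin ligase gene 14656 bases from Irgm, fell by 0.41 ± 0.17 on the log2 scale (adjusted p = 0.045). Here and below, 63% of the 15075 genes tested changed at an adjusted p under 0.05, 31.8% lower and 31.2% higher, so a single call of this kind is common.

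The remaining rows of both families were mostly lower too. By name or description the table holds 16 further rows of these or related families, Mx1 and Mx2 included. Of these, 14 were tested, 13 were lower and 1, Irgq, did not pass, against 31.8% lower among all genes tested. Several of the 14, such as Mx1, Gbp3 and Gvin1, had under 10 counts in every progesterone library. They passed the filter through the controls alone and could hardly be called higher, so nothing is read from this count. Gbp7 stood at 266 ± 13.0 CPM in control and 1.37 ± 0.216 CPM in progesterone libraries, which left 0.517% (0.416% to 0.636%), close to the share left in Ifi47. Gbp6, on chromosome 14 and thus apart from the other Gbp genes, was read at 84.7 ± 2.48 and 4.45 ± 0.322 CPM. With 5.25% left (4.65% to 5.91%), more remained of Gbp6 than of any of the 7 genes. Gbp3 had 91, 88 and 84 counts in the controls and none with progesterone (at least 80.2-fold lower on the same floor as above). An assembled locus on chromosome 2 with Gbp protein domains, without a gene name, had 1652 and 5 counts.

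Of the rows on chromosome 18 described as interferon-inducible GTPases or similar to them, 4 were tested and all 4 were lower. None of the 4 had 10 counts in every progesterone library, so they too passed the filter through the controls alone. MGC108823 left 0.678% (0.424% to 1.03%), RGD1309362 left 1.01% (0.609% to 1.59%) and LOC100910979 left 0.546% (0.261% to 1.01%). LOC100910934 had 70 counts in the controls and none with progesterone (at least 21.4-fold lower on the same floor). They may share reads, so the split between them is uncertain. The very large GTPase gene Gvin1 had 66 counts in the controls and 3 with progesterone, a ratio of 20.1 (6.6 to 100.1).

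Irgq and Irgc carry the family name but are not known as interferon-induced genes. Irgq, whose product lacks a typical GTPase motif, had 360, 388 and 405 counts in the controls and 420, 352 and 462 with progesterone, so the groups overlapped. Its log2 fold change was 0.22 ± 0.10 (adjusted p = 0.066, edgeR). It passed as higher without control replicate 3 (0.29, adjusted p = 0.030), without progesterone replicate 2 (0.30, 0.016), with upper quartile scaling (0.32, 0.011) and without a filter (0.21, 0.042). Irgc, a gene known from the testis, was near the lower end of detection at 1.39 ± 0.247 and 0.355 ± 0.152 CPM, and fell by 1.96 ± 0.35 (adjusted p = 0.00018). Irgc passed the filter through the controls alone and could hardly be called higher.

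**Figure D3:**
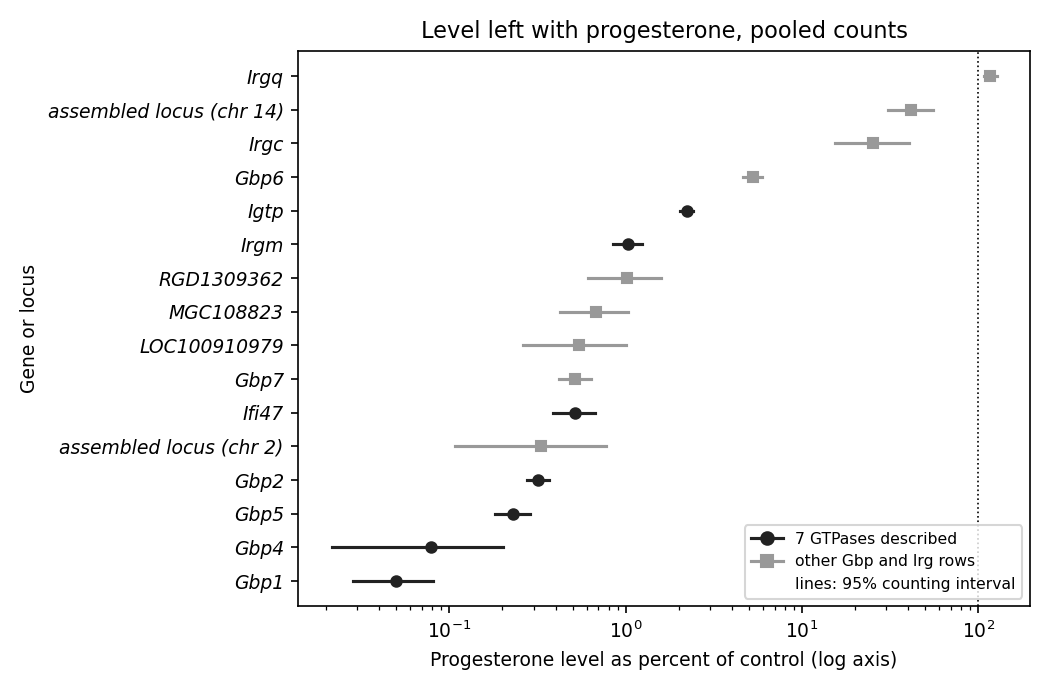
Progesterone level as a percent of the control level (log axis) from pooled scaled counts, for the 7 genes (black circles) and other Gbp and Irg rows with more than 3 progesterone counts (grey squares). Lines are 95% counting intervals and the dotted line marks 100%. The 7 genes lie between 0.0499% for Gbp1 and 2.22% for Igtp, and Gbp6, Irgc, Irgq and an assembled locus on chromosome 14 lie above them.

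Genes of the signalling path that leads to the Gbp and Irg genes were lower as well, most of them by far less. Of 23 genes on a list of ligands, receptors, kinases, transcription factors and feedback regulators, 21 were tested, 20 were lower and none was higher with edgeR's quasi-likelihood test, where 31.8% of all genes tested were lower. Their median log2 fold change was -1.77, against 0.00 for all genes tested, and 3 of the 21 were lower by 32-fold or more. Nlrc5, Batf2 and Ciita passed the filter through the controls alone. The ligand genes were hardly read: Ifng, interferon gamma, had 1 count in the controls and none with progesterone, and Ifnb1, interferon beta, had 17 and none (at least 5.19-fold lower, with 3 counts over the group as the floor).

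The receptor genes fell by less than 2-fold. Ifngr1, which binds interferon gamma, was read at 169, 169 and 175 CPM in control libraries, and at 84.8, 91.5 and 87.8 CPM in progesterone libraries, a 1.94-fold fall (adjusted p = 3.1e-11, edgeR). Its partner Ifngr2 fell 1.67-fold (adjusted p = 7.5e-09) and the type I receptor gene Ifnar1 1.53-fold (adjusted p = 8.7e-09). Of the kinases, Jak2 fell 3.41-fold (adjusted p = 3.9e-14) and Jak1 by 0.33 ± 0.04 on the log2 scale (adjusted p = 5.6e-06), while the smaller fall of Tyk2 (-0.21 ± 0.06, adjusted p = 0.0081) did not pass under upper quartile scaling (-0.11, adjusted p = 0.13).

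Several transcription factors lay between the receptors and the GTPases. Stat2 fell 21.5-fold from 703 ± 8.03 to 32.6 ± 2.70 CPM (adjusted p = 3.1e-18, edgeR), and Irf9, its DNA-binding partner, 7.45-fold from 125 ± 2.02 to 16.7 ± 0.929 CPM. Irf1, a factor that interferon gamma induces and that acts on Gbp promoters, fell 4.89-fold from 113 ± 2.56 to 23.2 ± 0.927 CPM. In none of these did progesterone and control libraries overlap. Compared per length, the mean levels of Stat2 and Irf1 in the progesterone libraries were 8.06 and 11.3 FPKM. In the same libraries the means of the 7 GTPase genes ran from 0.0238 FPKM for Gbp4 to 1.84 FPKM for Igtp. A link between these factors and the GTPase levels was not tested.

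The largest falls on the list were those of Usp18, Batf2 (log2 fold change -7.39) and Nlrc5. Usp18, a feedback inhibitor at the interferon receptor, was read at 352 ± 8.95 and 0.977 ± 0.257 CPM (log2 fold change -8.48 ± 0.09, adjusted p = 2.2e-19). Nlrc5, an activator of MHC class I genes, was read at 59.3 ± 0.706 and 0.507 ± 0.213 CPM. The feedback genes Socs1 and Socs3 fell less, 5.42-fold and 2.62-fold. Cebpb, a factor with many other inducers, differed by -0.08 ± 0.08 on the log2 scale, short of the threshold (adjusted p = 0.38). It passed as lower without progesterone replicate 3 (-0.18, adjusted p = 0.017).

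**Figure D4:**
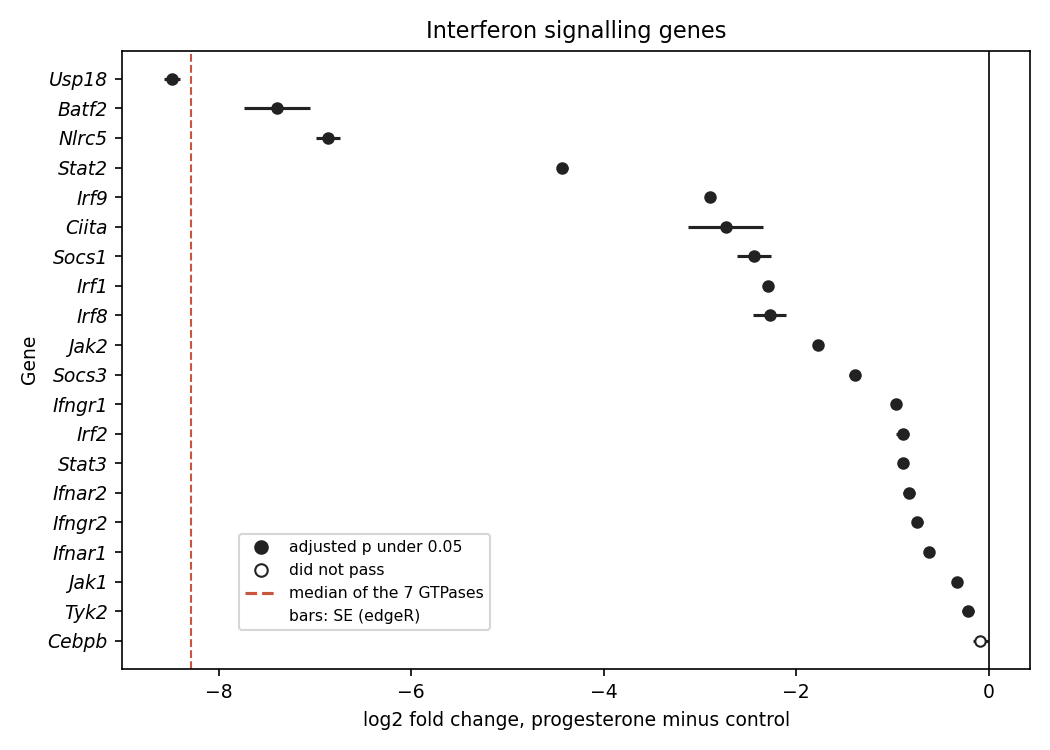
Fitted log2 fold change (progesterone minus control, with its SE) of 20 of the 21 tested interferon signalling genes. Filled points passed at an adjusted p under 0.05 and the dashed line is the median of the 7 GTPase genes, -8.29. Receptors, Jak1, Tyk2, Irf2 and Stat3 lie to the right, Stat2, Irf9 and Irf1 in the middle, and Nlrc5, Batf2 and Usp18 nearest the line.

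Partners through which Gbp proteins act moved in part. Of 10 inflammasome and pyroptosis genes, 8 were tested, 6 were lower and none was higher (median log2 fold change -1.46). Aim2, a DNA sensor, had 1349, 1176 and 1167 counts in the controls and 1, 1 and 4 with progesterone. Gsdmd, which forms the pyroptotic pore, fell 5.79-fold from 131 ± 5.23 to 22.5 ± 0.716 CPM (adjusted p = 7.8e-16, edgeR). Casp4, the caspase that Gbp proteins help to activate, fell 2.43-fold (adjusted p = 3.5e-10). Casp1, which like Aim2 passed the filter through the controls alone, fell 16.5-fold (adjusted p = 4.4e-10). Nlrp3 was read at 39 counts in each group (adjusted p = 0.79). Of 9 genes that tag vacuoles with ubiquitin or bind the tag, 9 were lower (median -1.20), with Rnf213, a giant ubiquitin ligase, 25.5-fold, Trim21 14.9-fold and the adaptor Sqstm1 2.39-fold lower. The call of Traf6 was lost without progesterone replicate 1 (adjusted p = 0.055), with DESeq2 (0.054) and with upper quartile scaling (0.095).

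Other large GTPases changed by far less than the 7 genes. Of 14 atlastin, dynamin, mitofusin and Ehd genes, all tested, 4 rose and 5 fell, and the median of their log2 fold changes was -0.12. The share called is near the 63% among all genes tested, so nothing is read from it. The largest change was that of Ehd3, a 1.68-fold fall (adjusted p = 6.7e-08, edgeR). Atl3, an atlastin that shapes the endoplasmic reticulum, had 1829, 1809 and 1778 counts in the controls and 972, 1093 and 1043 with progesterone, and fell 1.60-fold (adjusted p = 4.4e-08). The call of Opa1 (higher, adjusted p = 0.043) was lost without any 1 of the 6 libraries (adjusted p between 0.059 and 0.11). Atl1 (-0.43, adjusted p = 0.21) passed as lower without progesterone replicate 3 (adjusted p = 0.046).

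The cell types behind the counts were checked with markers. Cardiomyocyte markers were read at sums between 17952.5 and 18406.9 CPM in control libraries and between 19455.4 and 22305 CPM in progesterone libraries (3 of 9 tested higher, 4 lower, or 2 lower with upper quartile scaling), and fibroblast markers at higher sums, 27262.3 to 28360.4 and 36794.5 to 39741.4 CPM (4 of 7 higher, 2 lower). Endothelial markers summed to 147 to 193 and 120 to 164 CPM, with 2 of 7 higher and 2 lower: Tek fell 3.61-fold (adjusted p = 5.8e-10, edgeR), Emcn fell 1.95-fold and Flt1 rose 2.05-fold. Vwf, the other higher gene, did not pass without control replicate 1 (adjusted p = 0.053), and the replicate block gave 3 higher and 4 lower. Of the macrophage markers, 8 of 9 tested were higher (31.2% of all genes tested were) and none was lower. Among them, C1qa, C1qb and C1qc passed the filter through the progesterone libraries alone and could hardly be called lower. Nothing is therefore read from this count. The summed level of the macrophage markers was 36.0 to 54.4 CPM in control and 176 to 197 CPM in progesterone libraries. Mrc1 rose from 2.96 ± 0.934 to 10.8 ± 1.18 CPM, Csf1r from 3.29 ± 1.10 to 16.2 ± 1.39 CPM and Lyz2, which holds most of the progesterone sum, from 7.06 ± 3.33 to 110 ± 6.46 CPM, while Adgre1 had 3 and 16 and Cd163 4 and 3 counts. The call of Ptprc was lost without control replicate 1 (adjusted p = 0.057). Of 11 T and NK cell markers 3 were tested, 1 higher and 1 lower, and Cd3e and Cd3d were at 0 in all libraries. The summed level of that list, 45.8 to 48.9 CPM in control and 3.77 to 4.72 CPM in progesterone libraries, was almost all Klrk1 in the controls (46.0 ± 1.06 CPM). The part of these cells in the Gbp and Irg levels was not tested.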

How the data were processed

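Gene expression was measured by RNA-seq in 6 libraries of cultured rat cardiomyocytes, 3 control and 3 progesterone, grouped by their titles. The tables deposited by the authors hold unnormalized whole-number counts and, scaled for gene length and library size, FPKM. Bowtie 0.12.2 and the mouse build mm8 stand in the submitters' processing notes, while the rows carry rat Ensembl identifiers. For the rat build, the counter and its strand setting, nothing is given in the sources used here. Libraries held 21156793 to 25376220 counts.

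The main test was the quasi-likelihood test of edgeR 4.0.16 (R 4.3.3), with TMM factors, robust dispersion, the filterByExpr filter (count 10, total 15) and Benjamini-Hochberg adjustment over 15075 genes at 0.05. Replicate number was not used as a block. The pipeline was tested on simulated data. Clone-named rows took symbols through NCBI accessions (RefSeq, GRCr8, names and neighbours only), and repeated symbols kept the row with the highest count. Promoter sequences are RefSeq's for GRCr8. The 7 genes and all lists were chosen with earlier results of these data known. Named genes are the 7, the described members of the signalling and GTPase lists, up to 4 per further list by adjusted p, named neighbours, and the 5 genes most like the 7 in profile. Genes named because their call depended on a library, because they did not pass or because they dominate or lack counts in a marker list (Lyz2, Klrk1, Adgre1, Cd163, Cd3d, Cd3e) were added after their values were seen. Alternatives used RLE and upper quartile scaling, DESeq2 1.42.0, other filters, each library left out, a replicate block, and limma 3.58.1 on log2(FPKM + 1) and log2(FPKM + 0.1). Of the signalling list, 1 gene is counted but not reported here.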

Additional observations from a re-analysis of the deposited data

How the results depend on the processing

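The direction of all 7 genes was the same under every alternative run. Of their 98 recomputed log2 fold changes, 86 moved by less than the replicate spread and 12 by more. For Gbp4 the value was -13.81 without progesterone replicate 2 and -4.89 with limma on log2(FPKM + 1), where the added 1 exceeds every progesterone value of Gbp4. Genes changed overall numbered 4707 higher and 4790 lower, and 4265 to 4492 and 4421 to 4639 with 1 library left out. Upper quartile scaling gave 5843 higher and 3879 lower, 60.1% higher against 49.6%, and moved the median of all genes by 0.10 (log2). DESeq2 gave 4205 and 4418.

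Among the gene lists, these counts moved by over 1.5 times. The other interferon-inducible GTPases had 1 higher with upper quartile scaling and 1 without a filter, and 0 to 1 with a library left out. Prenylation and CaaX processing genes had 1 lower with upper quartile scaling and 1 higher with DESeq2. With a library left out they had 1 to 3 higher and 1 to 3 lower. The count of higher Atg8 conjugation genes was 0 with DESeq2, 0 with either limma fit, and 0 to 1 with a library left out. Lower cardiomyocyte markers went from 4 to 2 with upper quartile scaling. Endothelial markers went from 2 higher and 2 lower to 3 and 4 with the replicate block, and to 1 higher without control replicate 1 and with limma on log2(FPKM + 0.1). The causes were not tested.

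With replicate number as a block, 4691 genes were higher and 4817 lower. The labels share numbers between groups, but deviations of same-numbered libraries correlated at only 0.049, 0.018 and -0.00094, and not every library correlated best with its own number, so the numbers were not taken as pairs. Depth limits Gbp1 and Gbp4, read at 16 and 4 counts over the progesterone libraries.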

Other observations

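The genes whose profile over the 6 libraries was most like the mean of the 7, by Euclidean distance on centred log2(CPM + 1), were Cmpk2 (distance 0.150), Herc6 (0.265), Gbp7 (0.267), Dhx58 (0.311) and Oas2 (0.324). Cmpk2, a mitochondrial nucleotide kinase, stood at 297 ± 14.2 CPM in control and 1.62 ± 0.135 CPM in progesterone libraries (SD, n = 3). Herc6, a ubiquitin ligase gene, was read at 240 ± 10.0 and 1.22 ± 0.119 CPM. Dhx58, which encodes the RNA sensor LGP2, was read at 172 ± 5.32 and 0.645 ± 0.12 CPM. Oas2, an oligoadenylate synthetase, had no count with progesterone. The distances of the 7 themselves ran from 0.585 for Ifi47 to 2.18 for Gbp1, since the mean lies between genes that differ in size of change.

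Genes that process or partner Gbp and Irg proteins without being induced by interferon moved less. Of 8 genes of prenylation and CaaX processing, which attaches the lipid tail of some Gbp proteins, 3 rose and 2 fell, with a median of -0.06 on the log2 scale. Fntb rose (0.49 ± 0.10, adjusted p = 0.00072, edgeR), Ggps1 fell by 0.25 ± 0.06 (adjusted p = 0.0030) and Zmpste24 by 0.17 ± 0.05 (adjusted p = 0.011). Without progesterone replicate 3 Zmpste24 no longer passed (adjusted p = 0.073), and Icmt (0.17, adjusted p = 0.027) no longer passed without control replicate 1, control replicate 2 or progesterone replicate 3 (adjusted p from 0.091 to 0.12). The third higher gene, Rce1 (0.19, adjusted p = 0.046), no longer passed without any 1 library except progesterone replicate 2 (adjusted p from 0.071 to 0.21). Fdps (-0.14, adjusted p = 0.18) passed as lower without control replicate 3 (adjusted p = 0.0030), with the replicate block (0.024) and without a filter (0.0037).

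Of 11 Atg8 conjugation genes, through which the cell places Irg proteins on vacuoles, 6 were lower and 1 higher (median -0.21). Among all genes tested, 31.8% were lower and 31.2% higher. Map1lc3b and Gabarapl2, which encode Atg8 proteins, fell by 0.49 ± 0.04 (adjusted p = 5.0e-08) and 0.49 ± 0.05 (adjusted p = 5.8e-07), and Gabarapl1 by 0.45 ± 0.05 (adjusted p = 8.2e-07). The single higher gene, Atg16l1 (0.15, adjusted p = 0.035), no longer passed without control replicate 1 or 2 or progesterone replicate 1 or 3 (adjusted p from 0.078 to 0.16). Atg3 (-0.17, adjusted p = 0.021) no longer passed without control replicate 1 or 2 or progesterone replicate 3 (adjusted p from 0.059 to 0.14), and Map1lc3a (-0.10, adjusted p = 0.056) passed as lower without control replicate 2 (adjusted p = 0.048). Atg5 and Atg7 did not pass (adjusted p = 0.53 and 0.50).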
